A study of Mus musculus with 18 samples.

Results

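The measurements below concern 10 genes known from mature, migratory dendritic cells (DCs), namely Ccl17, Ccl22, Il12b, Cd40, Cd83, Relb, Fscn1, Marcksl1, Cacnb3 and Il4i1. They were taken as a list of symbols matched to the gene identifiers of a table of raw counts, and 10 of 10 were found among its 13759 genes. The list was selected on the measured counts of these libraries, chosen by the difference between the 2 sorted populations described below, so the difference between the populations is given for the 10 genes as a description, without a p-value. The study induced liver metastasis (LM) in female C57BL/6J mice aged 8 to 10 weeks by injecting MC38 cells, a mouse colon adenocarcinoma line, into the spleen, and analyzed the livers on day 20. Metastasis-associated macrophages (MAMs) were sorted from LM as lin- CD45+CD11b+ cells with either high (F4/80high) or low (F4/80low) surface F4/80, a macrophage antigen encoded by Adgre1, with 3 libraries each. The labels name both populations macrophages and mention no gate on CD11c or MHC class II. A second set of 12 libraries holds 4 populations of lin- CD45+ NKp46+ cells, with 3 libraries each. These were CD49a-CD49b+ NK cells and CD49a+CD49b- type 1 innate lymphoid cells (ILC1) from the metastasis-free liver (MFL), and CD49a-CD49b+ and CD49a+CD49b+ NK cells from LM, each sorted from 6 to 8 pooled samples. All 18 libraries came from mice injected with MC38 cells, and no genotype other than C57BL/6J and no treatment entered these comparisons.

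DCs take up antigen in tissues and present it to T cells. When a DC matures, it stops taking up antigen, displays costimulatory molecules, turns on the chemokine receptor CCR7 and moves to the lymph node. The same program is known in tumors, where DCs that carry both stimulatory genes (Cd40, Il12b) and regulatory genes (Ccl22, Il4i1, Cd274) are described across cancer types. It is driven in part by NF-kB, a family of transcription factors in which RELB is the partner of the non-canonical arm. Several of these genes are not restricted to DCs, since activated macrophages also make CD40, IL-12 and the CCR4 ligands.

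The chemokines CCL17 and CCL22 share the receptor CCR4, and their genes lie on chromosome 8 in the same orientation with 56030 bases between them. Ccl17, Ccl22 and Il4i1 were the 3 of the 10 genes with the largest difference between the MAM populations, so the 250 bases before their start sites are shown. They are RefSeq sequences of build GRCm38.p6, plus strand, from chr8:94810203-94810452, chr8:94745434-94745683 and chr7:44836038-44836287. Capitals mark the match to the STAT6-type motif TTCNNNNGAA in Ccl17, which begins 154 bases before the start, and the match to the PU.1-type motif GAGGAAGT in Il4i1, which lies on the opposite strand and begins 133 bases before the start.
Ccl17: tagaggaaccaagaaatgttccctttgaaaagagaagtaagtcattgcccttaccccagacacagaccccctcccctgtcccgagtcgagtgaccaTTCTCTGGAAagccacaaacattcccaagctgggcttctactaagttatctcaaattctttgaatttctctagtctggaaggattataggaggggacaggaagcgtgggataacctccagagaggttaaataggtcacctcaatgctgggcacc
Ccl22: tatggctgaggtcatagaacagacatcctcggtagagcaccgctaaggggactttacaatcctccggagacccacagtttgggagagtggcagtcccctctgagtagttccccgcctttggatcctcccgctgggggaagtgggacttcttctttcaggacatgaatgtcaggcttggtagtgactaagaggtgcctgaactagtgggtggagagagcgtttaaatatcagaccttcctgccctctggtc
Il4i1: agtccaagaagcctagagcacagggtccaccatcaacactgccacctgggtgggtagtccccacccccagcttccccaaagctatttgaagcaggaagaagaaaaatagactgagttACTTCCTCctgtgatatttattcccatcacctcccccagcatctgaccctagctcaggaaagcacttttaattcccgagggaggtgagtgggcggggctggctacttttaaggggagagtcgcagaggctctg
The table of promoters held 7 of the 10 genes, and Relb, Cd83 and Cd40 are named only. Both strands of these windows were searched for 4 motifs. TTCNNNNGAA occurred in 1 of the 7 genes and in 5.85% of the 32851 promoters of the table, and GAGGAAGT in 1 of the 7 and in 2.44%. A strict form of the NF-kB motif (7.25% of all promoters) and the AP-1 motif TGANTCA (6.75%) had no match in the windows of the 7 genes. Sites that depart from these patterns or lie outside the windows were not searched for. A match of letters is a description of the sequence only.

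The 6 MAM libraries held 21278959 to 32267015 counts. Levels are given as CPM, that is as counts scaled to a library size of 1000000 after TMM normalization between libraries, and gene positions are those of the GENCODE vM39 annotation of GRCm39. In the MAM comparison 27.1% of all genes were called lower and 27.8% higher in F4/80high than in F4/80low MAMs, where called means an adjusted p under 0.1 in edgeR's quasi-likelihood test, and in 28.6% of all genes every F4/80high library lay below every F4/80low library. By the same criteria 9 of the 10 genes were called lower and 8 did not overlap, which the choice of the list sets and which is therefore not read further. At a log2 fold change of -3 or below, which 3.07% of all genes passed as called, 6 of the 10 were found. The median log2 fold change (F4/80high minus F4/80low) was -3.32 over the 10 genes and 0.01 over all 13759 genes. Because these are bulk samples, a smaller share of cells that express a gene and less of its RNA per cell cannot be told apart.

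**Figure D1:**
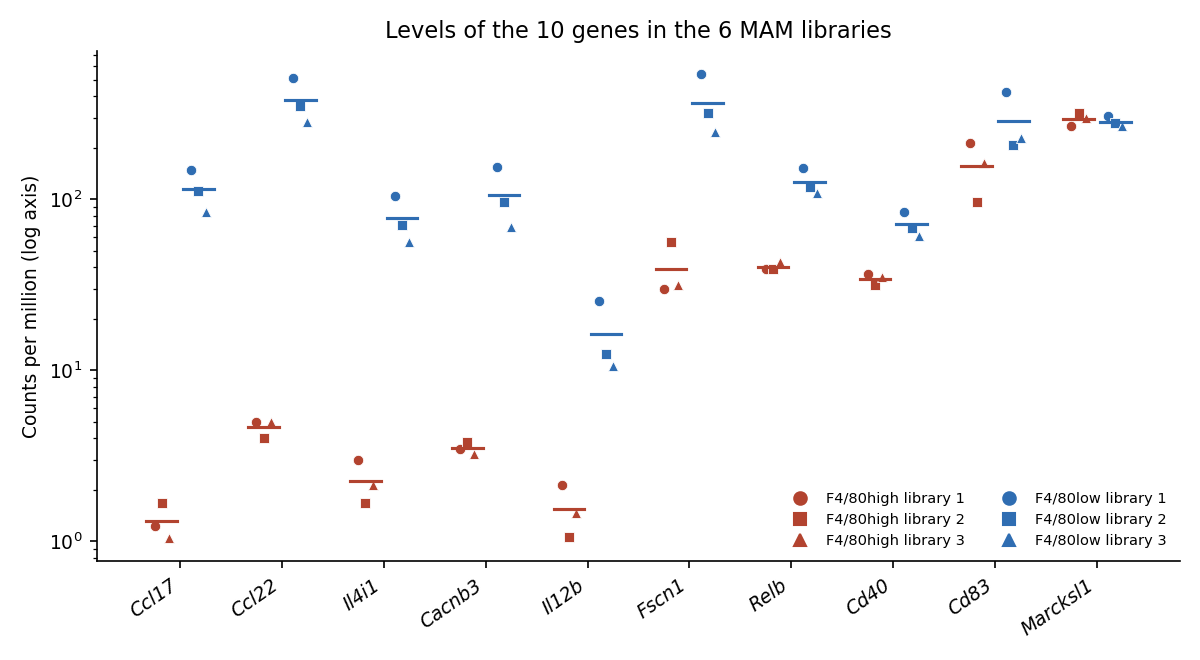
Levels of the 10 genes in CPM (log axis) in each F4/80high (red) and F4/80low (blue) MAM library, ordered by log2 fold change. Points are libraries and horizontal lines are means of 3 libraries. The groups stand far apart for Ccl17 and Ccl22, overlap for Cd83, and coincide for Marcksl1, and F4/80low library 1 (blue circle) is the highest F4/80low library for every gene.

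The chemokine genes Ccl17 and Ccl22 had the lowest F4/80high levels relative to F4/80low among the 10. Their products bind CCR4, the receptor of regulatory T cells and type 2 helper T cells. Ccl17 (ENSMUSG00000031780.3, chr8:95534358-95538664, plus strand) measured 148, 112 and 83.7 CPM in the F4/80low libraries and 1.22, 1.67 and 1.04 CPM in the F4/80high libraries. The F4/80high level was 1.14% of the F4/80low level, with a log2 fold change of -6.45 ± 0.28 (SE). These F4/80high values rest on 27, 47 and 32 counts, against 4519, 3292 and 1936 in F4/80low MAMs. The groups did not overlap, and the weakest F4/80low library still held far more Ccl17 than the strongest F4/80high library. Ccl22 (ENSMUSG00000031779.4, chr8:95471226-95478327, plus strand) measured 511, 352 and 285 CPM in F4/80low and 4.95, 4.00 and 4.99 CPM in F4/80high MAMs, a log2 fold change of -6.36 ± 0.26. Its F4/80high level was 1.21% of its F4/80low level, and the F4/80high counts were 110, 113 and 154.

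In F4/80low MAMs the ratio of these neighbouring genes was steadier than either gene. The level of Ccl22 over that of Ccl17 was 3.45, 3.13 and 3.41 in the F4/80low libraries, with a coefficient of variation (CV) of 5.22%, while Ccl17 itself varied by 28.2% and Ccl22 by 30.4%. In the F4/80high libraries, where Ccl17 rested on few counts, the ratio was 4.07, 2.40 and 4.81 and thus less steady. The ranges of the ratio in the populations overlapped, although the level of each gene differed many fold. Il4i1 also followed Ccl17 closely in F4/80low MAMs, at ratios of 0.706, 0.630 and 0.673 and a CV of 5.68%. The CV was 10.8% for Fscn1 over Ccl22, 12.9% for Cacnb3 over Ccl17 and 14.8% for Flt3 over Ccl22. For Ccr7 over Ccl22 it was 15.8%, and for Marcksl1 over Ccl22 21.5%. All these ratios varied less than Ccl17 or Ccl22 alone, so a steadier ratio was not particular to the neighbouring genes.

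Il12b encodes the p40 chain shared by IL-12 and IL-23, cytokines by which DCs drive type 1 and type 17 responses. Il12b (ENSMUSG00000004296.15, chr11:44290808-44305505, plus strand) measured 25.5, 12.5 and 10.6 CPM in F4/80low MAMs and 2.12, 1.06 and 1.46 CPM in F4/80high MAMs. The groups did not overlap, and F4/80low library 1 stood well above the other F4/80low libraries. The log2 fold change was -3.41 ± 0.40, on 777, 365 and 246 counts in F4/80low and 47, 30 and 45 in F4/80high MAMs. Il12a and Il23a, whose products pair with p40 to form IL-12 and IL-23, were not analysed here.

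The costimulatory genes Cd40 and Cd83 differed less between the populations than the chemokines. CD40 receives the CD40 ligand signal of activated T cells. Cd40 (ENSMUSG00000017652.17, chr2:164897544-164914868, plus strand) measured 84.5, 68.2 and 61.1 CPM in F4/80low and 36.5, 31.4 and 35.0 CPM in F4/80high MAMs, a log2 fold change of -1.06 ± 0.13. The F4/80high libraries kept 48.1% of the F4/80low level, and the groups did not overlap. CD83 protects MHC class II and CD86 from removal from the cell surface. Cd83 (ENSMUSG00000015396.5, chr13:43938251-43956634, plus strand) measured 424, 208 and 229 CPM in F4/80low and 212, 95.9 and 164 CPM in F4/80high MAMs. Here the groups overlapped, because F4/80high library 1 lay above F4/80low library 2. The log2 fold change was -0.87 ± 0.33, with values of -0.48 without F4/80low library 1 and -0.61 without F4/80high library 2.

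Relb (ENSMUSG00000002983.19, chr7:19339017-19363425, minus strand) encodes the transcription factor that pairs with p52 in non-canonical NF-kB signaling and is needed for DC maturation. It measured 152, 118 and 109 CPM in F4/80low and 39.2, 38.9 and 43.0 CPM in F4/80high MAMs. The F4/80high libraries lay close together, with a CV of 5.67%, and all were below the F4/80low libraries. The log2 fold change was -1.65 ± 0.13, so that F4/80high MAMs kept 31.9% of the F4/80low level.

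A further 3 genes of the list act at the cytoskeleton and at the membrane. FSCN1 (fascin) bundles actin filaments and is needed for the dendrites of mature DCs. Fscn1 (ENSMUSG00000029581.15, chr5:142946098-142958953, plus strand) measured 541, 318 and 247 CPM in F4/80low and 29.8, 56.5 and 31.5 CPM in F4/80high MAMs, a log2 fold change of -3.23 ± 0.35. The groups did not overlap, and Fscn1 was the most variable of the 10 genes in F4/80high MAMs, with a CV of 38.1%, F4/80high library 2 being the highest. Cacnb3 (ENSMUSG00000003352.15, chr15:98528721-98542417, plus strand) encodes a cytoplasmic beta subunit of voltage-gated calcium channels. It measured 154, 96.1 and 68.6 CPM in F4/80low and 3.47, 3.79 and 3.21 CPM in F4/80high MAMs, a log2 fold change of -4.93 ± 0.31, and the F4/80high level was 3.29% of the F4/80low level. The F4/80high libraries were nearly level, at a CV of 8.33%, while the F4/80low libraries spread at 40.9%.

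Marcksl1 was the exception of the list. MARCKSL1 binds calmodulin and actin and is a substrate of protein kinase C. Marcksl1 (ENSMUSG00000047945.7, chr4:129406288-129409778, plus strand) measured 308, 279 and 267 CPM in F4/80low and 270, 320 and 299 CPM in F4/80high MAMs. The groups overlapped throughout, and the log2 fold change of 0.06 ± 0.10 was smaller than its error. It lay between -0.0014, without F4/80high library 2, and 0.12 over the settings tried, so its sign is not determined. Its homolog Marcks went the other way from the rest of the list, at 893, 711 and 1034 CPM in F4/80high and 341, 340 and 326 CPM in F4/80low MAMs, a log2 fold change of 1.39 ± 0.14.

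IL4I1 is a secreted oxidase that breaks down phenylalanine and other aromatic amino acids and restrains T cells. Il4i1 (ENSMUSG00000074141.14, chr7:44465354-44490233, plus strand) measured 105, 70.8 and 56.3 CPM in F4/80low and 2.97, 1.67 and 2.14 CPM in F4/80high MAMs. The groups did not overlap, and the log2 fold change was -5.12 ± 0.29. The annotation places Nup62, a nuclear pore gene, over the same stretch on the same strand, so reads may be split between the genes and the level of Il4i1 is uncertain to that extent. Nup62 measured 54.6, 59.1 and 51.7 CPM in F4/80low and 64.9, 73.8 and 64.5 CPM in F4/80high MAMs, in the opposite direction to Il4i1.

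To compare levels between genes, CPM were divided by the merged exon length of each gene in kilobases. In F4/80low MAMs the level per kilobase was highest for Ccl17 at 173 (range 126 to 223 over 3 libraries), followed by Ccl22 at 157 (117 to 209), Fscn1 at 122 (81.6 to 179), Marcksl1 at 106 (99.2 to 114) and Cd83 at 94.1 (68.2 to 139). These 5 genes overlapped with their neighbours in that order. The level per kilobase was then 24.9 (21.5 to 29.9) for Relb, 21 (13.6 to 30.5) for Cacnb3, 20.9 (17.9 to 24.8) for Cd40 and 15.7 (11.4 to 21.2) for Il4i1. These 4 genes overlapped with each other in turn and stood below Cd83 without overlap. Il12b was last at 5.91 (3.88 to 9.30) and did not overlap with Il4i1.

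In F4/80high MAMs the order of the levels per kilobase differed. Marcksl1 was first at 110 (100 to 119), followed without overlap by Cd83 at 51.6 (31.5 to 69.5) and Fscn1 at 13 (9.85 to 18.7). Cd40 at 10.1 (9.21 to 10.7) overlapped with Fscn1, and Relb stood just below it at 7.93 (7.64 to 8.45). The chemokine genes, first in F4/80low MAMs, were here at 1.97 (1.56 to 2.51) for Ccl17 and 1.90 (1.64 to 2.04) for Ccl22, which overlapped. Below them lay Cacnb3 at 0.692 (0.636 to 0.751), Il12b at 0.564 (0.387 to 0.771) and Il4i1 at 0.458 (0.338 to 0.603), each overlapping with the next. In F4/80high MAMs the genes of costimulation, RELB and the actin cytoskeleton made up the upper part of the order, and the chemokines, Il12b, Cacnb3 and Il4i1 the lower part.

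The 10 genes also varied together within F4/80low MAMs. F4/80low library 1 was the highest of the 3 for 10 of the 10 genes and for 35.3% of all genes, and library 3 was the lowest for 9 of the 10 and for 33.1% of all genes. Summed over the 10 genes, the level was 2453, 1634 and 1418 CPM in F4/80low and 603, 555 and 585 CPM in F4/80high MAMs. The median CV of the 10 genes in F4/80low MAMs was 31.2%, against 10.2% for all genes, and in F4/80high MAMs 18.4% against 11.5%. In F4/80high MAMs no library was highest for most of the genes, with library 1 highest for 4 of the 10, library 2 for 4 and library 3 for 2. F4/80high library 2 was the lowest for 6 of the 10 and for 36.6% of all genes. Relative to the mean of the 3 F4/80low libraries, the 10 genes lay between 1.08 (Marcksl1) and 1.57 (Il12b) in library 1, between 0.725 (Cd83) and 0.979 (Ccl17 and Marcksl1) in library 2 and between 0.646 (Cacnb3) and 0.939 (Marcksl1) in library 3.

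Other genes of mature DCs mostly followed the same order of the libraries. Of 28 other mature DC genes measured, library 1 was the highest F4/80low library for 27 and library 3 the lowest for 20. Ccr7 lay at 1.53, 0.780 and 0.690 times its F4/80low mean in libraries 1, 2 and 3. Genes of conventional DCs in general had a similar order, with library 1 highest for 4 of 5 and library 3 lowest for 5 of 5. Of 6 type 2 conventional DC genes, library 1 was highest for 5, and libraries 2 and 3 were each lowest for 3. Flt3 lay at 1.24, 1.08 and 0.679 times its mean, and Zbtb46, at 1.02, 1.21 and 0.770, was highest in library 2. Of 9 macrophage genes, library 1 was highest for 1 and library 3 for 6, and of 7 classical monocyte genes, library 1 for 2 and library 3 for 5. The order was not limited to DC genes. Of 23 NF-kB genes, some of them also on the list of mature DC genes, library 1 was highest for 16 and library 3 lowest for 12. The neutrophil genes S100a8 (21, 1.30 and 2.46 CPM) and S100a9 (32.8, 1.91 and 5.41 CPM) were also highest in library 1, and their part in the order of the 10 genes was not tested. Whether the makeup of the sorted cells, their state or their handling differed between these libraries was not tested. Without library 1 the log2 fold changes of the 9 lower genes stayed negative and were closer to 0, at -6.24 for Ccl17, -6.11 for Ccl22, -4.84 for Il4i1, -4.57 for Cacnb3, -2.92 for Il12b, -2.85 for Fscn1, -1.50 for Relb, -0.93 for Cd40 and -0.48 for Cd83, and that of Marcksl1 was 0.11.

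**Figure D2:**
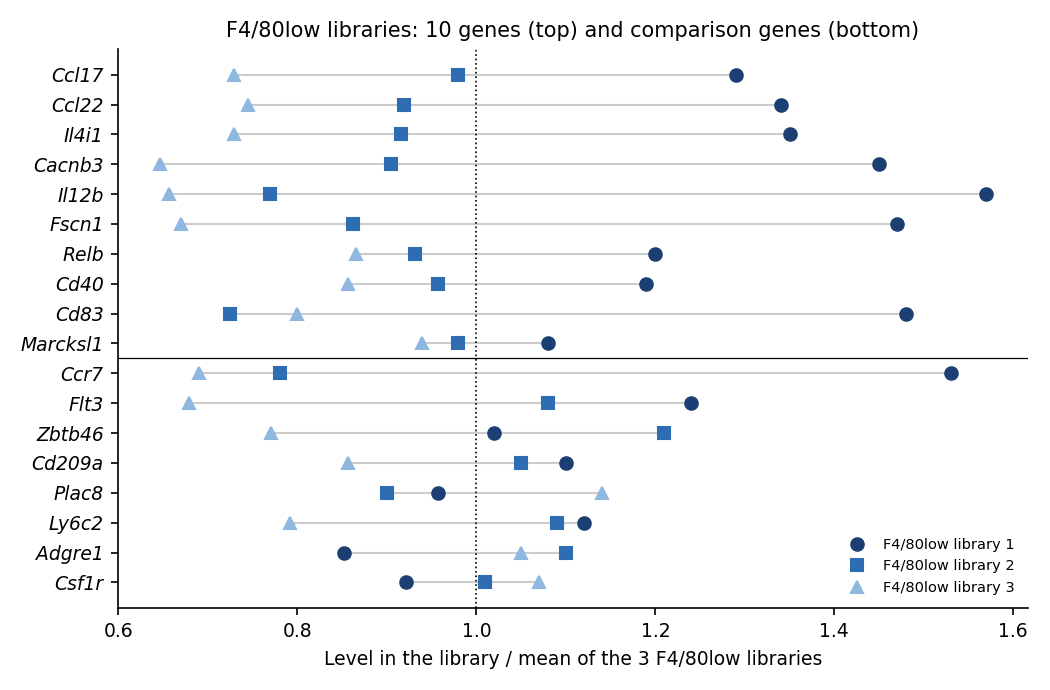
Level in each F4/80low library divided by the mean of the 3 F4/80low libraries, for the 10 genes (above the line) and for Ccr7, conventional DC genes (Flt3, Zbtb46), Cd209a, monocyte genes (Plac8, Ly6c2) and macrophage genes (Adgre1, Csf1r). Library 1 lies to the right for each of the 10 genes and also for Ccr7 at 1.53, Flt3 at 1.24, Ly6c2 at 1.12 and Cd209a at 1.1, but not for Zbtb46, Plac8, Adgre1 or Csf1r.

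The 10 genes were set beside markers of DCs and of the other cells that the gate could hold. The lists were chosen with earlier results known, and the same libraries and difference chose the 10 genes. The comparison is therefore a description and no independent check of the name given to the 10 genes. In the following lists higher and lower refer to F4/80high relative to F4/80low MAMs, among the measured genes of each list. Over all genes 27.1% were called lower and 27.8% higher. Of the 28 other mature DC genes, 26 were called lower, 0 higher, and Il15 and Ebi3 were not called, with a median log2 fold change of -2.87. Among them Ccr7, the receptor that guides mature DCs to the lymph node, measured 323, 165 and 146 CPM in F4/80low and 5.72, 0.992 and 3.11 CPM in F4/80high MAMs, a log2 fold change of -6.05 ± 0.56. Nudt17 (-6.06 ± 0.56), Mreg (-5.72 ± 0.46) and Apol7c (-5.44 ± 0.41) were the other genes with the largest changes above a mean level of 5 CPM, and Tmem150c (-6.07 ± 0.50) and Slco5a1 (-5.72 ± 0.43) were expressed below it. Lamp3 and Cd70 of this list were not analysed here.

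Genes of conventional DCs, whether mature or not, were also lower in F4/80high MAMs. All 5 genes of this list were called lower, with a median log2 fold change of -5.29 and a summed level of 1016 to 1350 CPM in F4/80low against 76.2 to 141 CPM in F4/80high MAMs. Most of this sum was Itgax, at 952, 943 and 767 CPM in F4/80low and 132, 117 and 69.7 CPM in F4/80high MAMs. Flt3, the receptor on which DC development depends, measured 132, 115 and 72.3 CPM in F4/80low and 2.61, 1.95 and 1.72 CPM in F4/80high MAMs (-5.69 ± 0.28), and Zbtb46, a transcription factor of conventional DCs, measured 56.2, 66.6 and 42.4 against 1.22, 2.48 and 1.62 CPM (-4.94 ± 0.26). The 6 genes of type 2 conventional DCs were all called lower, at 682 to 948 against 36.9 to 61.7 CPM in sum, with Cd209a at -6.08 ± 0.33 and Clec10a at -3.64 ± 0.12. Of 9 type 1 conventional DC genes 5 were called lower and 2 higher, at 1247 to 1632 against 701 to 969 CPM. In F4/80low MAMs Xcr1 was at 0.605 to 4.13 CPM and Clec9a at 3.89 to 13 CPM, against at most 2.01 and 2.43 CPM in F4/80high MAMs. Itgae of this list measured 44.5, 64.2 and 22 CPM in F4/80low and 2.07, 1.2 and 2.66 CPM in F4/80high MAMs. Cadm1 went the other way, at 8.9, 6.97 and 6.49 against 50.2, 46.8 and 62.8 CPM. Of 5 plasmacytoid DC genes 3 were called lower and 1 higher, and Siglech reached at most 2.49 CPM in any library. Their summed level went the other way, at 80.9 to 87.3 CPM in F4/80low and 102 to 135 CPM in F4/80high MAMs. Most of this sum was Tcf4, at 78.5, 72.7 and 78.3 CPM in F4/80low and 130, 101 and 134 CPM in F4/80high MAMs. Defining DC markers were thus present in F4/80low MAMs, a population that the labels call macrophages, and Flt3 and Zbtb46 did not exceed 2.61 CPM in F4/80high MAMs.

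Macrophage genes showed the opposite direction. The 9 macrophage genes were all called higher, at 21991 to 30512 CPM in sum in F4/80high and 6537 to 8201 CPM in F4/80low MAMs. Adgre1, which encodes the sorted antigen, measured 901, 806 and 1167 CPM in F4/80high and 124, 160 and 153 CPM in F4/80low MAMs (2.71 ± 0.17), as the gate requires, and Csf1r, the receptor on which macrophages depend, had a log2 fold change of 0.64 ± 0.16. Macrophage genes were therefore also well expressed in F4/80low MAMs, with Csf1r at 1743 to 2025 CPM. Of 7 classical monocyte genes 6 were called lower and 1 higher, at 2314 to 2683 CPM in F4/80low and 950 to 1228 CPM in F4/80high MAMs, with Ly6c2 at -3.61 ± 0.39 and Ccr2 at -1.56 ± 0.11. A large part of the F4/80high sum was F13a1, at 584, 411 and 755 CPM in F4/80high and 151, 173 and 264 CPM in F4/80low MAMs. How much of the difference in the 10 genes goes with the shares of DCs, monocytes and macrophages in the sorted populations was not tested.

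Markers of other cells had lower summed levels than those of macrophages and classical monocytes, but not all were below the DC markers. Both measured epithelial genes were called lower, with Epcam at -5.78 ± 0.43 and Cdh1 at -4.66 ± 0.19 and a summed level of 197 to 281 CPM in F4/80low against 8.30 to 11.8 CPM in F4/80high MAMs, while the keratin genes of this list were not analysed here. Most of this sum was Cdh1, at 247, 264 and 189 CPM in F4/80low and 8.06, 11.5 and 8.14 CPM in F4/80high MAMs. Cdh1 is also known in some DCs. Of 5 neutrophil genes 4 were called lower, at 86.1 to 126 against 73.5 to 104 CPM, most of it Csf3r (log2 fold change 0.19 ± 0.14, not called), and Cxcr2 reached at most 3.71 CPM. S100a8 and S100a9 did not exceed 0.225 CPM in F4/80high MAMs and reached 21 and 32.8 CPM in F4/80low library 1. Of 5 Kupffer cell genes 3 were called higher and 1 lower, at 9.10 to 10.9 CPM in F4/80low and 6.68 to 15.8 CPM in F4/80high MAMs, with Clec4f at 0.422 to 2.80 CPM in F4/80high and Timd4 at 7.29 to 9.21 CPM in F4/80low MAMs. Summed levels in F4/80low and F4/80high MAMs were 22.8 to 101 and 135 to 200 CPM for 3 fibroblast genes, 38.9 to 43.2 and 15.9 to 18.4 CPM for 3 endothelial genes, 6.53 to 20.7 and 19.1 to 38.4 CPM for 6 B cell genes, 7.44 to 18.0 and 5.42 to 13.9 CPM for 6 T cell genes, and 2.25 to 19.9 and 0.815 to 3.06 CPM for 4 NK cell genes. Siglecf, hepatocyte genes and erythroid genes summed to at most 7.96, 8.50 and 63.7 CPM in any library. No gene of these lists was at 0 in all 6 libraries.

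**Figure D3:**
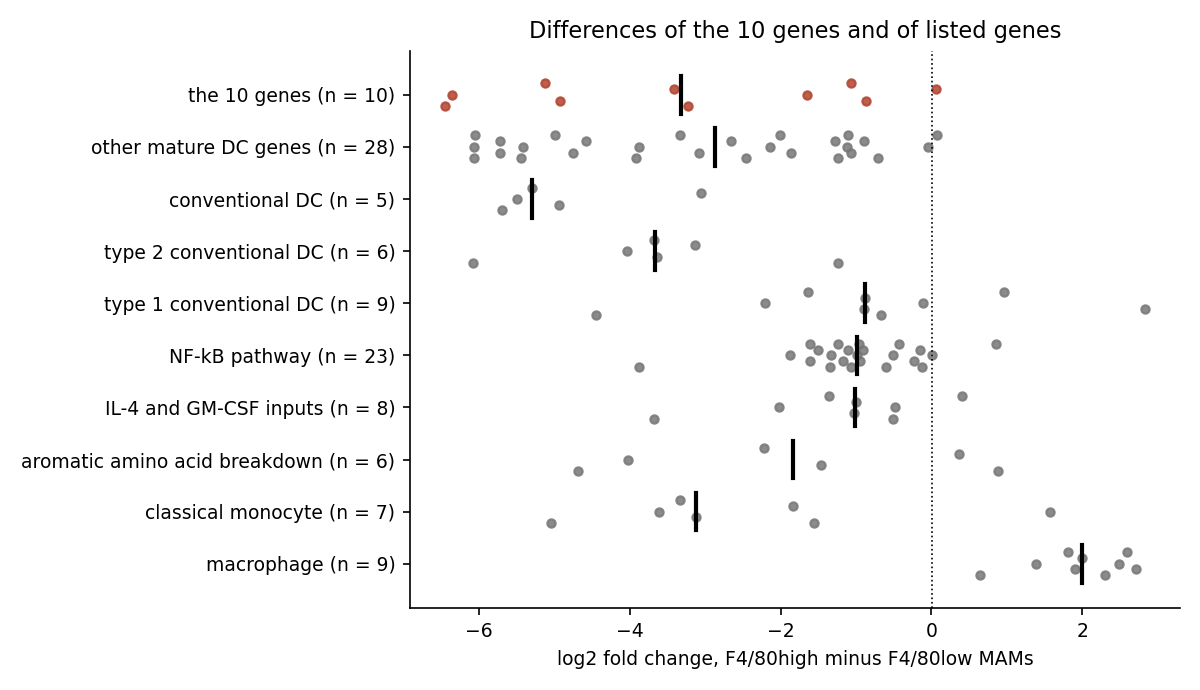
Log2 fold change (F4/80high minus F4/80low) of the 10 genes (red) and of the genes of 9 lists (grey), 1 point per gene, with the median of each list as a black bar and the median of all genes as a dotted line. The median was -3.32 for the 10 genes, -5.29 for conventional DC genes, -2.87 for other mature DC genes and 2.00 for macrophage genes.

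The NF-kB genes around Relb were mostly lower in F4/80high MAMs, by less than the chemokines. Of 23 genes 18 were called lower and 1 higher, with a median log2 fold change of -0.98. In the non-canonical arm, Map3k14, the kinase that starts it, measured 193, 154 and 141 CPM in F4/80low and 43.5, 39.8 and 49.8 CPM in F4/80high MAMs (-1.88 ± 0.14), and Nfkb2, which encodes the precursor of the RELB partner p52, measured 264, 253 and 228 against 102, 118 and 110 CPM (-1.17 ± 0.09). Rel, a canonical subunit of DCs and lymphocytes, had a log2 fold change of -1.61 ± 0.22, Nfkbia, the inhibitor that NF-kB induces, one of -1.61 ± 0.19, and Traf1, a signaling adaptor that the list of mature DC genes also holds, one of -3.88 ± 0.18. The receptor gene Tnfrsf11a was called higher at 0.86 ± 0.10, and Nfkbiz (-0.12 ± 0.25), Ikbkg (-0.23 ± 0.11), Traf2 (-0.15 ± 0.09) and the receptor gene Ltbr (0.01 ± 0.08) were not called. Relb, at -1.65, lay near Rel and Map3k14. It was chosen by this difference, so its place beyond the median of this list is not read further.

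The cytokine and chemokine partners of the list were few in the MAM table. Of 6 IL-12 family and receptor genes 3 were called lower and 1 higher, the latter being Il12rb1 (1.30 ± 0.33), the receptor chain that binds p40. The former were Il12rb2 (-3.17 ± 0.36), the other IL-12 receptor chain, at 3.72 to 7.19 CPM in F4/80low and at most 0.765 CPM in F4/80high MAMs, Il27ra (-1.18 ± 0.24) and Il6st (-0.44 ± 0.12), a shared signaling chain. Ebi3 and Il27, the other cytokine genes of this family that were measured, were not called. Il12b was chosen by this difference, so it is not ranked against them. Of the CCR4 and CCR7 genes Ccr7 and Ccr8 were measured and both were called lower, Ccr8 on levels of at most 1.35 CPM and no longer so without F4/80low library 1 or 2 or F4/80high library 2 or 3. Ccr4 and the CCR7 ligand genes Ccl19 and Ccl21a were not analysed here.

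IL-4 and GM-CSF are the cytokines known to induce CCL17 and CCL22 in DCs and macrophages. Of 8 genes of their receptors and transcription factors 7 were called lower and 1 higher in F4/80high MAMs, with a median log2 fold change of -1.01. Csf2rb, the signaling chain of the GM-CSF receptor, measured 770, 772 and 747 CPM in F4/80low and 204, 155 and 207 CPM in F4/80high MAMs (-2.02 ± 0.13), and Csf2ra had a log2 fold change of -1.03 ± 0.09. Irf4, a transcription factor of type 2 conventional DCs that acts in the induction of Ccl17, had the largest change of the list (-3.68 ± 0.33), followed after Csf2rb by Stat5a (-1.36 ± 0.13). The gene called higher was Il4ra, the IL-4 receptor chain, at 0.40 ± 0.09. In F4/80low libraries 1, 2 and 3, Irf4 measured 78.8, 74.7 and 44.2 CPM and Stat5a 93.2, 105 and 73.9 CPM. Csf2ra measured 561, 512 and 573 CPM there and Il4ra 416, 416 and 434 CPM. Whether any of these genes goes with the order of the 10 genes was not tested.

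Beside Il4i1, genes of aromatic amino acid breakdown were measured. Of 6 such genes 4 were called lower and 1, Ahrr, higher on a level of at most 1.56 CPM and not with DESeq2 or without any one of the F4/80low libraries or F4/80high library 3. Kmo, which hydroxylates kynurenine, measured 163, 154 and 104 CPM in F4/80low and 5.58, 5.03 and 5.64 CPM in F4/80high MAMs (-4.69 ± 0.19). Kynu (-4.02 ± 0.27) and Haao (-2.22 ± 0.12), enzymes further along the same pathway, and Ahr (-1.46 ± 0.29), a receptor that senses its products, were also called lower. Ido1 was not analysed here. Of the relatives of Cacnb3, Cacnb1 was lower at 10.9, 8.88 and 7.22 against 3.60, 3.65 and 3.89 CPM (-1.28 ± 0.19).

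The 10 genes were then looked for in the NK cells and ILC1, whose sort markers select lymphocytes rather than DCs. These 12 libraries held 8795721 to 14386834 counts over 54309 listed genes, so 3 counts, the upper limit that a count of 0 allows, correspond to 0.209 to 0.341 CPM. Cacnb3 and Il12b had 0 counts in all 12 libraries, and Ccl17 had 1 count in 1 library. Ccl22 was found in a single library, MFL NK 1, with 65 counts, and Cd40 with 8 counts in MFL ILC1 2. Fscn1 had 108 counts in LM CD49a- NK library 1 and at most 6 in any other library. These single-library counts did not recur in other libraries of their groups, and 6 of the 10 genes did not pass the filter on low counts.

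The remaining 4 genes, Relb, Cd83, Marcksl1 and Il4i1, were compared between the lymphocyte populations with edgeR's quasi-likelihood test. The list was selected on the MAM libraries, not on these. In each of the 3 comparisons 0 of the 4 genes was called, where 0.14% of 13594 genes were called between CD49a+ and CD49a- NK cells of LM, 0.0736% between LM CD49a- and MFL NK cells, and 3.06% between MFL ILC1 and MFL NK cells. At an unadjusted p under 0.05 the counts were 0, 1 and 0 of the 4 genes, and DESeq2 called 0, 0 and 0.

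Relb and Marcksl1 were the only ones of the 10 genes with more than 3 counts in all 12 libraries. Relb measured 33.8, 41.4 and 38.8 CPM in NK cells of MFL, 58.1, 37.5 and 31.9 CPM in ILC1 of MFL, 94.9, 12.5 and 154 CPM in LM CD49a- NK cells and 49.8, 71.5 and 69.0 CPM in LM CD49a+ NK cells. The LM CD49a- NK libraries spread over more than the range of all others, and library 2 was the lowest of the 12. Between LM CD49a- and MFL NK cells the log2 fold change was 1.2 ± 0.57 (adjusted p = 0.742, edgeR). It was 1.71 without LM CD49a- NK library 2, where Relb was called, and 0.50 without LM CD49a- NK library 3, so this difference depended on single libraries. LM were digested with Liberase and MFL were smashed and filtered, so that the site and the dissociation cannot be told apart in this comparison.

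Cd83, a gene that activated lymphocytes also express, was low in MFL and uneven in LM. It measured 0.0817, 2.28 and 3.08 CPM in NK cells of MFL, 2.12, 4.68 and 2.75 CPM in ILC1 of MFL, 1.11, 0 and 37.9 CPM in LM CD49a- NK cells and 22.6, 9.93 and 38.1 CPM in LM CD49a+ NK cells. The LM CD49a+ libraries all lay above the 6 MFL libraries, while 2 of the 3 LM CD49a- libraries were within or below the MFL range. Neither LM CD49a- against MFL NK cells (2.83 ± 1.63, adjusted p = 0.796, edgeR) nor CD49a+ against CD49a- NK cells of LM (0.85 ± 1.53, adjusted p = 0.894, edgeR) passed the threshold. Without LM CD49a- NK library 3 these log2 fold changes were -1.69 and 5.36, so the direction of the first rested on that library.

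Marcksl1 and Il4i1 were at lower levels. Marcksl1 measured 0.735 to 7.05 CPM in NK cells of MFL, 1.33 to 13.9 CPM in ILC1 of MFL, 9.42 to 12.8 CPM in LM CD49a- NK cells and 0.484 to 36.7 CPM in LM CD49a+ NK cells, and the groups overlapped except that LM CD49a- lay above MFL NK cells (1.49 ± 1.37, adjusted p = 0.957, edgeR). Il4i1 measured at most 5.52 CPM in any library and was at 0 counts in LM CD49a- NK 1, LM CD49a+ NK 3 and MFL ILC1 1. Its log2 fold change between CD49a+ and CD49a- NK cells of LM was 3.49 ± 2.42 (adjusted p = 0.618, edgeR), an error nearly as large as the change. The MAM and lymphocyte tables came from different library kits and were normalized apart, so levels are not compared between them.

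**Figure D4:**
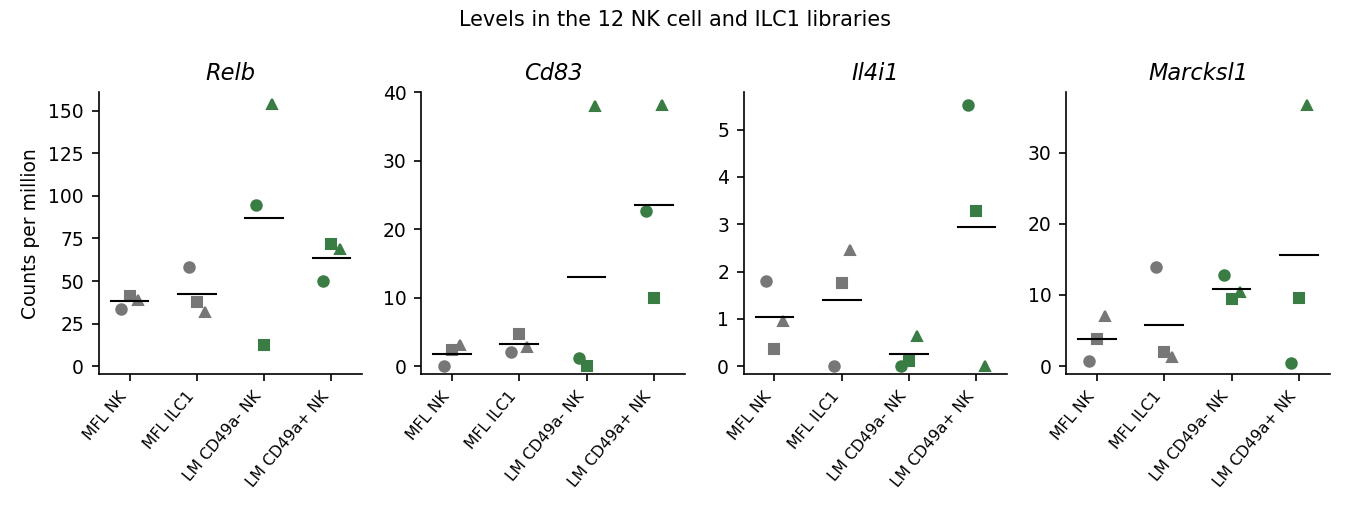
Levels (CPM) of the 4 genes that passed the filter in the 12 lymphocyte libraries (MFL grey, LM green). Points are libraries, with circle, square and triangle for libraries 1, 2 and 3, and bars are means of 3. Relb was found in every library and spread most in LM CD49a- NK cells, from 12.5 to 154 CPM, and Cd83 reached 9.93 CPM or more in LM libraries only.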

How the data were processed

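The sorted cells were sequenced in bulk, MAMs as directional poly(A) libraries and lymphocytes as stranded total RNA libraries, with 3 libraries per population. For both tables the authors trimmed reads with Trim Galore and quantified them on GRCm39 with Salmon (v1.10.0 for MAMs, v1.5.0 for lymphocytes, per the labels), and deposited estimated counts per gene as whole numbers without normalization. The filter behind the 13759 MAM genes, each with a total of at least 37 counts, is not given in the sources used here, nor is whether MAM libraries came from separate mice, so p-values measure the spread between these libraries, which may be technical. Gene IDs were named from GENCODE vM39, which held 13726 of the MAM IDs and 53700 of the 54309 lymphocyte IDs.

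Genes were filtered with filterByExpr, scaled by TMM and compared with the quasi-likelihood test of edgeR v4.0.16 in R v4.3.3, in one fit of the 6 MAM libraries and one of the 12 lymphocyte libraries. P-values were Benjamini-Hochberg adjusted over all tested genes and called under 0.1. Standard errors of log2 fold changes were approximated as the absolute log2 fold change over the root of the quasi-likelihood F. The script was tested on simulated data. The 10 genes and all lists were chosen with earlier results of these data known. In the text stand all 10 genes and, per pathway list, up to 4 called genes with the largest change and a mean of at least 5 CPM, with some fixed by name, and per cell type list its first 2 genes and its summed level. Genes outside this rule (Ccr8, Ltbr, Tnfrsf11a, Nfkbiz, Ikbkg, Traf2, Il4ra, Ahrr, Il15, Ebi3, Il27, Il12rb2, Il27ra, Tmem150c, Slco5a1, S100a8, S100a9, Plac8, Nup62, Itgae, Cadm1, Itgax, Tcf4, F13a1) were named after their values were seen. Alternatives were DESeq2 v1.42.0 with its size factors, RLE scaling, no filter, a mean of at least 5 CPM, the replicate number as a block, each library left out, and a threshold of 0.05.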

Additional observations from a re-analysis of the deposited data

How the results depend on the processing

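The log2 fold changes of the 10 genes between F4/80high and F4/80low MAMs moved by less than the spread between replicates under all alternatives run (110 values). The count of 9 called genes, which the choice of the list sets, was 8 where Cd83 did not pass. Cd83 was not called with DESeq2, at an adjusted p under 0.05, or without F4/80high library 2, F4/80high library 3 or F4/80low library 1. Of 47 other genes whose MAM difference or call is given, Ccr8 and Ahrr lost their calls in 10 of their values, Il27 and Ikbkg passed the test in 3 of theirs, and only genes that were not called changed sign. With a library left out these lay between -0.20 and 0.11 for Il15, -0.10 and 0.21 for Ebi3, -0.31 and 0.10 for Nfkbiz, and -0.01 and 0.05 for Ltbr, which was at -0.0010 with RLE scaling and with DESeq2. Leaving out single libraries gave 6550 to 7234 called genes, against 7555 with every library. Scaling moved the median log2 fold change of all genes only from 0.014 to -0.001. With a replicate block, 7512 genes were called in MAMs and 24, 15 and 445 genes in the 3 lymphocyte comparisons below. Deviations of libraries of the same number correlated weakly, at 0.172, -0.015 and 0.027 in MAMs and -0.045 to 0.098 in lymphocytes. The value of 0.172, for the MAM libraries of number 1, lay above the range of different numbers in MAMs (-0.123 to 0.091). The numbers were not taken as pairs.

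Counts of called genes in the lymphocytes depended on the processing, and the cause was not tested. Between CD49a+ and CD49a- NK cells of LM 19 genes were called, but 926 with DESeq2, 200 without the filter, 12 with a mean of at least 5 CPM, 8 at an adjusted p under 0.05, and 5 (without LM CD49a+ NK library 1) to 267 (without LM CD49a- NK library 3) when a library was left out. Between LM CD49a- and MFL NK cells 10 were called, but 310 with DESeq2, 158 without the filter, 5 with a mean of at least 5 CPM, 4 at an adjusted p under 0.05, and 1 (without MFL NK library 1 or 3) to 110 (without LM CD49a- NK library 3) with a library left out. Between MFL ILC1 and MFL NK cells 416 were called, 762 with DESeq2, and 268 (without MFL NK library 1) to 562 (without LM CD49a- NK library 2) with a library left out, with 276 without MFL ILC1 library 3. Of the 10 genes, 0 were called in the lymphocytes, except for Relb without LM CD49a- NK library 2, so that leaving out a library gave 0 to 1. Their lymphocyte differences changed sign in 6 values, none of them called, all with a library left out. In CD49a+ minus CD49a- NK cells of LM, the range was -0.97 to 0.23 for Relb (the latter without LM CD49a- NK library 3) and -1.10 to 1.07 for Marcksl1 (the former without LM CD49a+ NK library 3). In LM CD49a- minus MFL NK cells it was -1.69 to 3.44 for Cd83 (the former without LM CD49a- NK library 3). In MFL ILC1 minus MFL NK cells it was -0.13 to 0.33 for Relb and -1.19 to 1.33 for Marcksl1 (the lowest without ILC1 library 1), and -0.24 to 1.07 for Il4i1 (the lowest without ILC1 library 3). Depth limits the F4/80high levels of Ccl17, Il12b and Il4i1, which rest on 27 to 66 counts per library.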
